A study of Mus musculus with 127 samples.

Results

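The mitochondrial ribosomal proteins were taken as every gene whose symbol begins with Mrpl or Mrps followed by a digit, pseudogene symbols left out, with the transcript row of highest mean level standing for a symbol with several rows. This gave 77 genes out of 24320 in the table, 48 with a large-subunit (Mrpl) and 29 with a small-subunit (Mrps) symbol, described across single marrow cells of C57BL/6J mice. The groups were 48 Flvcr-deleted cells, 31 EPO-treated cells, from wild-type mice given the hormone erythropoietin, which stimulates the formation of red cells, and 48 wild-type cells, all labelled erythroblasts. The sources used here do not state how or in which cells Flvcr was deleted, the EPO dose or the age of the mice. The labels also sort the cells into classes A, B, C and D, along which the median signal of Ter119 increased in each group, Ter119 being an antigen on the surface of red cell precursors. Classes B to D together held 30 Flvcr-deleted, 24 EPO-treated and 42 wild-type cells.

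Mitochondrial ribosomes translate the few proteins encoded by mitochondrial DNA, all of them subunits of the respiratory chain and of ATP synthase. Their RNA parts are made in the mitochondrion, whereas every protein of both subunits is encoded in the nucleus, made in the cytosol and imported. Erythroblasts depend on mitochondria for heme synthesis and clear them during the last steps of maturation. Flvcr codes for a heme exporter. The set is mixed: some of its proteins have counterparts in bacterial ribosomes, others are found only in mitochondrial ones, and a few symbols mislead. Mrps30 and Mrps18a code for proteins that sit in the large subunit in mammalian structures, and the product of Mrps36 has been assigned in later work to the 2-oxoglutarate dehydrogenase complex.

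The labels tie no cell to a mouse. A group is therefore 1 sample without a replicate check, no p-values are given, and SDs over cells describe only the cells measured. Each group was captured on a chip of its own, apart from 4 EPO-treated cells on a further chip, so effects of chip and of group cannot be told apart. In the table, Flvcr1 goes under the older symbol Mfsd7b. It was detected, that is, had an RPKM of at least 1, in 0 of 48 Flvcr-deleted cells (a count of 0 allows up to 6.25%), in 0 of 31 EPO-treated cells (up to 9.68%) and in 1 of the 48 wild-type cells, so it does not check the labels. At least 3 erythroid markers were detected in every cell of classes B to D, and no such cell reached 3 of the 12 granulocyte and monocyte markers, whose summed RPKM there was at most 15.2. Class A was mixed: 1 of 18 Flvcr-deleted, 2 of 7 EPO-treated cells and 2 of the 6 wild-type ones had at least 3 of those markers, and the wild-type class A cells had a globin share of at most 0.199% of their RPKM. Class A is therefore given apart, and contrasts average classes B, C and D with equal weight. A letter did not stand for the same Ter119 value in each group. In class B the median normalized Ter119 value was 0.381 in Flvcr-deleted, 0.0988 in EPO-treated and 0.452 in wild-type cells. The highest EPO-treated class B value, 0.197, lay below the lowest wild-type one, 0.330. Contrasts within a letter are therefore not matched for Ter119. In classes B to D the estimated reads, in units of 1e6, had a median of 3.51 in Flvcr-deleted cells (0.762 to 4.87) and 4.04 in wild-type cells (2.09 to 5.34). The depth of the EPO-treated cells is unknown, because their columns were rounded to 2 decimals.

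Typical levels of the set lay below those of cytosolic ribosomal protein genes and of respiratory chain genes. On the log2(RPKM + 1) scale, which is used for all levels and differences here, the mean over all cells had a median of 1.11 across the 77 genes, with 1.40 for large-subunit and 0.74 for small-subunit symbols. The 76 cytosolic ribosomal protein genes had a median of 6.84 and 77 nuclear genes of the respiratory chain one of 3.78. The background, 2540 of all 24320 genes, had a median of 1.92, but it was chosen for a mean of 1 or more. It therefore leaves out every gene below that level and does not show where the set stands among all genes. Of the 77, 45 reached that mean of 1 and 32 did not; in group means, 37 reached it in Flvcr-deleted, 42 in EPO-treated and 52 in wild-type cells. Every gene of the set was seen somewhere, in 8 to 88 cells, with a median of 32. The detection share per gene in classes B to D had a median of 23.3% in Flvcr-deleted, 25.0% in EPO-treated and 31.0% in wild-type cells. For the background it was 36.7% in Flvcr-deleted, 41.7% in EPO-treated and 59.5% in wild-type cells, so a lower share than in wild-type cells was not particular to the set. Shorter transcripts had higher values: across the 77 genes, which are not independent replicates, level and transcript length had a Spearman rho of -0.50.

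The 12 genes of the set with the highest mean levels were Mrpl33 (4.02), Mrps18c (3.87), Mrpl18 (3.75), Mrpl20 (3.71), Mrps14 (3.28), Mrps21 (3.22), Mrps36 (3.01), Mrpl53 (3.00), Mrpl28 (2.98), Mrpl51 (2.89), Mrpl30 (2.89) and Mrpl52 (2.85). The SD over cells of classes B to D was between 2.00 (Mrpl51 in wild-type cells) and 3.94 (Mrpl18 in EPO-treated cells) for these 12, so neighbours in that order did not differ beyond their spread. The groups did not put the same genes on top. Over classes B to D the first 3 in Flvcr-deleted cells were Mrps18c (4.99), Mrpl33 (4.25) and Mrpl20 (3.97). In EPO-treated cells they were Mrpl18 (4.43), Mrpl33 (4.19) and Mrps18c (3.63), and in wild-type cells Mrpl18 (5.18), Mrps18c (4.81) and Mrps36 (4.75). Mrps36 stood at place 22 of 77 in Flvcr-deleted and at place 10 in EPO-treated cells, against place 3 in wild-type cells.

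Fewer genes of the set were seen per cell in both Flvcr-deleted and EPO-treated than in wild-type cells. A cell of classes B to D held a median of 13.5 of the 77 in Flvcr-deleted cells (range 0 to 64), 11.5 in EPO-treated cells (1 to 63) and 23.0 in wild-type cells (2 to 60), and the ranges overlapped almost fully. The number of all genes detected was also lower, with medians of 1196.5 in Flvcr-deleted, 1385 in EPO-treated and 2199 in wild-type cells. As a share of the detected genes the set made up a median of 1.16% in Flvcr-deleted, 0.891% in EPO-treated and 1.04% in wild-type cells. Its share of the summed RPKM outside globins was 0.808% in Flvcr-deleted, 0.887% in EPO-treated and 0.621% in wild-type cells. So the count was lower and the share of the non-globin signal was higher in both compared with wild-type cells. Fewer transcripts per cell and poorer capture of the same transcripts cannot be told apart in these data.

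By class, the median number detected was 3.5 in class A, 13.5 in B, 10.0 in C and 17.0 in D of Flvcr-deleted cells. It was 14.0, 32.0, 9.0 and 5.5 in classes A to D of EPO-treated cells, and 33.5, 41.5, 19.0 and 16.0 in classes A to D of wild-type cells. The medians were thus lower in each later class from B to D in EPO-treated and wild-type cells, and highest in D in Flvcr-deleted cells. The class A value of Flvcr-deleted cells joins 9 cells with suffix d, with a median of 1 gene of the set and 343 genes in all, and 9 with suffix a, with a median of 19 genes of the set. The share of the non-globin RPKM was highest in class B in all groups, at 1.07% in Flvcr-deleted, 1.13% in EPO-treated and 0.926% in wild-type cells. In class D it was 0.767% in Flvcr-deleted, 0.399% in EPO-treated and 0.505% in wild-type cells.

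**Figure D1:**
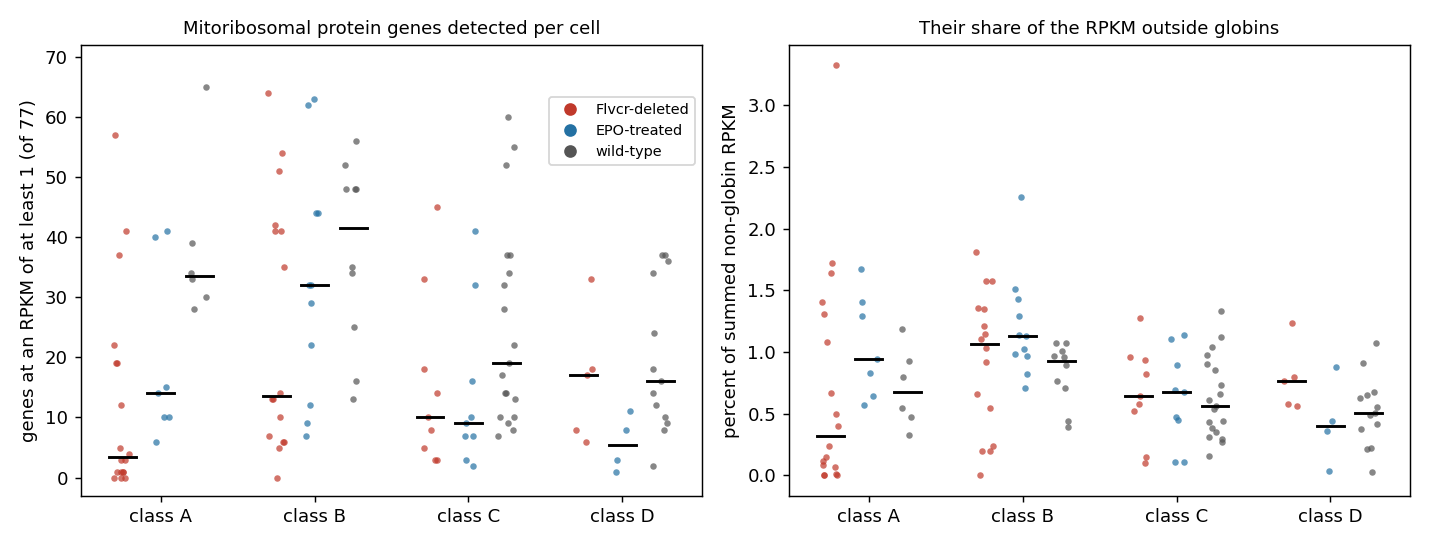
Number of the 77 mitochondrial ribosomal protein genes at an RPKM of at least 1 (left) and their percent of the summed RPKM outside globins (right) in each cell, by class letter and group. Points are cells and bars are medians: in class B the median count is 13.5 in Flvcr-deleted, 32.0 in EPO-treated and 41.5 in wild-type cells, while the median shares are 1.07% in Flvcr-deleted, 1.13% in EPO-treated and 0.926% in wild-type cells.

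The number of these genes seen in a cell followed the number of all genes seen in it. Over cells of classes B to D, Spearman's rho was 0.94 in Flvcr-deleted (n = 30), 0.95 in EPO-treated (n = 24) and 0.96 in wild-type cells (n = 42), where both counts come from the same library and share its depth. With the Ter119 value of the cell, rho was -0.14 in Flvcr-deleted, -0.53 in EPO-treated and -0.34 in wild-type cells. Without the EPO-treated cells of the further chip, it was -0.44 in that group (n = 21). With the globin share, the set's share of the non-globin RPKM had a rho of -0.70 in Flvcr-deleted, -0.77 in EPO-treated and -0.80 in wild-type cells.

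At a like number of detected genes, Flvcr-deleted and EPO-treated cells held more genes of the set than wild-type cells did. Among cells with 1500 to 2000 detected genes, the count ran from 14 to 45 with a median of 34.0 in 4 Flvcr-deleted cells and from 8 to 32 with a median of 30.5 in 4 EPO-treated cells, against 9 to 18 with a median of 13.5 in 12 wild-type cells. In the same cells the set's median share of the non-globin RPKM was 1.25% in Flvcr-deleted, 1.07% in EPO-treated and 0.437% in wild-type cells. Among cells with 2000 to 2500 genes the medians were 41 in 4 Flvcr-deleted, 41 in 3 EPO-treated and 24 in 7 wild-type cells, and among cells with 1000 to 1500 genes they were 13.0 in 8 Flvcr-deleted, 10.5 in 8 EPO-treated and 8.0 in 6 wild-type cells. Above 2500 genes they were 54 in 3 Flvcr-deleted, 62 in 3 EPO-treated and 37 in 17 wild-type cells. The ranges overlapped in each of these windows, which were set after the values had been seen. Cells of like gene number were not alike otherwise: at 1500 to 2000 genes the median globin share was 73.4% in Flvcr-deleted, 64.8% in EPO-treated and 87.6% in wild-type cells. Above 2500 genes it was 1.26% in Flvcr-deleted, 30.5% in EPO-treated and 42.6% in wild-type cells. All Flvcr-deleted and EPO-treated cells above 2500 genes were of class B, as were 8 of the 17 wild-type cells. The part of globin share and of class in these differences was not tested.

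**Figure D2:**
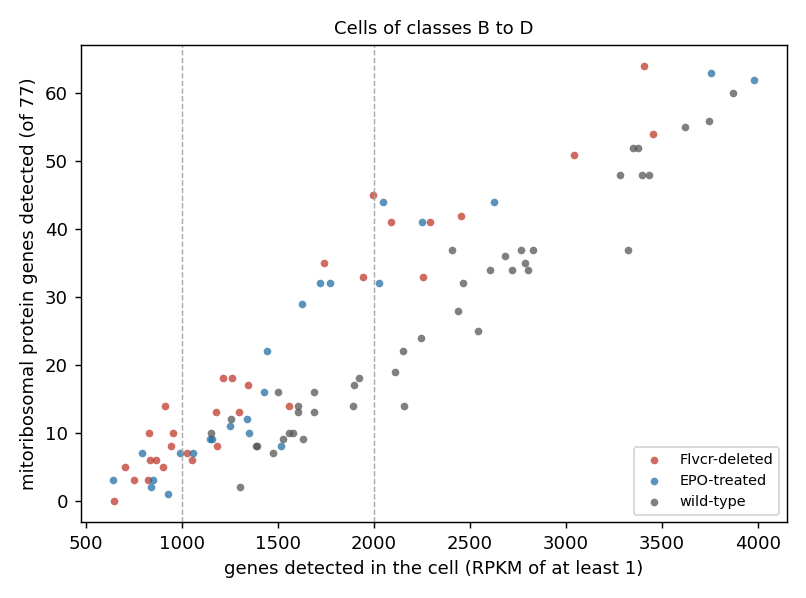
Mitochondrial ribosomal protein genes detected against all genes detected (RPKM of at least 1), 1 point per cell of classes B to D. Both counts are high in the same cells in each group (rho 0.94 to 0.96); between the dashed lines at 1000 and 2000 genes the wild-type cells lie at 2 to 18, and Flvcr-deleted cells reach 45.

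Flvcr-deleted and wild-type cells were compared first, a comparison that addresses what differs with the deletion. Most genes of the set had lower levels in Flvcr-deleted cells. The class-weighted difference was below 0 for 61 of the 77, with a median of -0.36, against a median of -1.08 for the background. A gene was called lower or higher where classes B, C and D all shared the sign of the difference and their average was 1 or more in size. By this rule 9 of the 77 were lower, where 48.3% of the background was, and 0 were higher, where 3.74% of the background was. While 32 of the 77 had a mean level below 1, all of the background had one above it. Without that filter on low values the background had a median of -0.08 with 12.9% lower, near the 11.7% of the set. That comparison is not matched for level, since 2540 of all 24320 genes but 45 of the 77 reached a mean of 1. With the filter on both sides, fewer than 9 of the 45 genes of the set that passed were lower, since Mrps9 did not pass, against 48.3% of the background. Median differences were -0.25 for large-subunit and -0.37 for small-subunit symbols, with 6 and 3 genes lower.

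**Figure D3:**
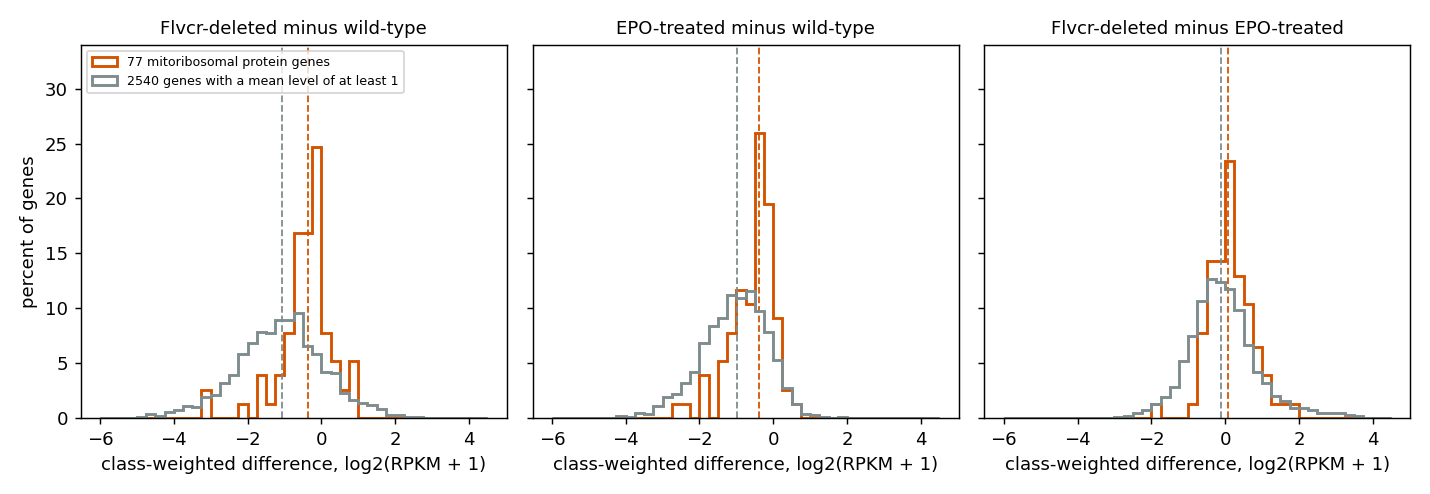
Percent of genes by class-weighted difference in log2(RPKM + 1) over classes B to D, for the 77 mitochondrial ribosomal protein genes and the 2540 background genes; dashed lines are medians. The set and the background have medians of -0.36 and -1.08 for Flvcr-deleted minus wild-type, -0.39 and -0.99 for EPO-treated minus wild-type, and 0.08 and -0.12 for Flvcr-deleted minus EPO-treated.

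The promoters of 68 of the 77 genes were in RefSeq's GRCm38.p6 table, as 250 bases before to 50 after the transcription start. They were searched on both strands for short letter strings named after factors that are known for housekeeping and mitochondrial genes (NRF1, ETS, YY1), for red cells (GATA) and for basal promoters (CCAAT, TATA). The ETS string CCGGAAG was in 35.3% of the set's promoters, in 25.7% of 1956 background promoters and in 9.12% of all 27025. The YY1 string AAGATGGC was in 17.6%, 6.34% and 2.88%, and the NRF1 string CGCATGCG in 10.3%, 4.81% and 1.91%. The GATA string AGATAA was in 16.2%, 6.75% and 11.4%, CCAAT in 39.7%, 43.0% and 37.9%, and TATAAA in 5.88%, 7.82% and 14.2%. All 9 genes lower in Flvcr-deleted cells had a promoter in the table: 6 of them held CCAAT, 2 ETS, 2 GATA, 1 TATAAA, and 0 held the NRF1 or YY1 string. These are matches of letters and not binding sites.

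The sequences below show 200 bases before to 30 after the start, 5′ to 3′ on the gene's strand, for the pair lowest in Flvcr-deleted cells and for a pair that was not lower. Capitals mark any of the 6 strings on either strand. They are Mrps36 at chr13:100744630-100744859 (minus strand), Mrpl18 at chr17:12916062-12916291 (minus strand), Mrpl33 at chr5:31613751-31613980 (plus strand) and Mrpl52 at chr14:54426709-54426938 (plus strand). Within this window Mrps36 and Mrpl18 hold no ETS string, Mrpl33 holds 1 across its start, and Mrpl52 holds 2. The pairs are examples only. Over the searched promoters the ETS string was in 24 of 68 genes of the set and in 2 of the 9 lower ones, so most genes of either kind lacked it.
Mrps36: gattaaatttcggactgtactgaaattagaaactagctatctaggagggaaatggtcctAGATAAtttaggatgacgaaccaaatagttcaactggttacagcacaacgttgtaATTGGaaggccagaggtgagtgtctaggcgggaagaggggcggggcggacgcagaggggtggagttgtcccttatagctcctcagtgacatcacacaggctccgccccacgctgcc
Mrpl18: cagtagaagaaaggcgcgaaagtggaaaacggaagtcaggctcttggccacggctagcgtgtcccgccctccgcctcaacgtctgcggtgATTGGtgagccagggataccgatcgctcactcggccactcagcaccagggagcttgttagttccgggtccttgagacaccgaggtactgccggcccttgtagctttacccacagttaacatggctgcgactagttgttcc
Mrpl33: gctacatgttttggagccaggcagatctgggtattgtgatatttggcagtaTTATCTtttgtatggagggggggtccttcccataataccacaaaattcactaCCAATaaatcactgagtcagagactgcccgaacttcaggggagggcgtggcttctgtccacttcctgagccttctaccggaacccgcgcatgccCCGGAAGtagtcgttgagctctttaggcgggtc
Mrpl52: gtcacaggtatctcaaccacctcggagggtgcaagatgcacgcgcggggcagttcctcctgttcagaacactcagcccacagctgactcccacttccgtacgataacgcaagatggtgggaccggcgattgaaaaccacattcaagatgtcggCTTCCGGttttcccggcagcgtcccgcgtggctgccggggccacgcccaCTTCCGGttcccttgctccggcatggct

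Mrps36 and Mrpl18 had the lowest differences of the set in Flvcr-deleted cells. Mrps36 had an RPKM of 0 to 159 with a median of 0 in 30 Flvcr-deleted cells, 0 to 212 with a median of 0.62 in 24 EPO-treated cells, and 0 to 196 with a median of 51.2 in 42 wild-type cells. Its detection share was 40.0% in Flvcr-deleted cells (95% interval 22.7% to 59.4%), 12 of 24 in EPO-treated cells (29.1% to 70.9%) and 83.3% in wild-type cells (68.6% to 93.0%). All 10 wild-type class B cells had it, at 20.0 to 138, against 7 of 16 Flvcr-deleted class B cells. Class D had it in 1 of 5 Flvcr-deleted cells, at 83.2, in 1 of 4 EPO-treated cells, at 106, and in 10 of 13 wild-type cells. The difference was -3.03, with -3.79 in class B, -2.32 in class C and -2.97 in class D. Most Flvcr-deleted cells were below an RPKM of 1, and the groups overlapped in every class.

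Mrpl18, a large-subunit protein with a bacterial counterpart that in human cells also takes part in the import of a cytosolic ribosomal RNA, had an RPKM of 0 to 333 with a median of 0 in Flvcr-deleted cells, 0 to 898 with a median of 77.1 in EPO-treated cells, and 0 to 341 with a median of 107 in wild-type cells. Its difference between Flvcr-deleted and wild-type cells was -3.05 and nearly equal in classes B (-3.08), C (-2.97) and D (-3.09). Class D had it in 1 of 5 Flvcr-deleted cells, at 25.7, in 2 of 4 EPO-treated cells, at 104 and 159, and in 9 of 13 wild-type cells. The wild-type class D cells ranged from 0 to 301, so the groups overlapped.

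The other lower genes were Mrpl28 (-2.16), Mrpl14 (-1.73), Mrpl2 (-1.24), Mrps5 (-1.37) and Mrps9 (-1.13), which have bacterial counterparts, and Mrpl53 (-1.61) and Mrpl46 (-1.53), found only in mitochondrial ribosomes. Mrpl28 was detected in 13 of 30 Flvcr-deleted cells, 12 of 24 EPO-treated cells and 27 of the 42 wild-type cells. Its level had an SD of 2.79 over Flvcr-deleted and 3.31 over wild-type cells, more than the difference itself. Mrpl46 was read in 3 of the 30 Flvcr-deleted cells, against 13 of 42 wild-type ones, and Mrps9, which stayed below the mean level of 1, in 2 of those 30 and 9 of those 42. The sequencing protocol named in the labels does not mark the strand, and Mrpl53 shares 418 bases of exon with the predicted gene Gm42688 in the GENCODE vM21 annotation, so its reads there cannot be told apart from that gene's. Likewise Mrpl33 shares 107 bases with Gm43809, Mrps18c 112 bases with Gm43511 and Mrpl18 17 bases with Tcp1, while no overlap was listed for Mrps36, Mrpl28, Mrpl14 or Mrpl52.

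Other abundant genes of the set did not follow. Mrps18c, 1 of 3 mammalian genes descended from a single bacterial small-subunit protein gene, had an RPKM of 0 to 730 with a median of 57.6 in Flvcr-deleted cells, 0 to 462 with a median of 20.2 in EPO-treated cells and 0 to 405 with a median of 51.8 in wild-type cells. Its detection share was 73.3% in Flvcr-deleted, 54.2% in EPO-treated and 78.6% in wild-type cells, and the difference between Flvcr-deleted and wild-type cells was -0.15. Mrpl33, a small large-subunit protein, had an RPKM of 0 to 281 with a median of 57.0 in Flvcr-deleted cells, 0 to 516 with a median of 28.8 in EPO-treated cells and 0 to 262 with a median of 15.5 in wild-type cells. Its difference was 0.92, largest in class D (2.27, against 0.45 in B and 0.03 in C). Mrpl52 (0.82), Mrpl32 (0.87), Mrps16 (0.88) and Mrps14 (0.34) also lay above 0 without being called. Among the remaining genes named by rule, the difference was -0.40 for Mrpl12 and 0.08 for Mrpl10, both of the factor-binding stalk, -0.35 for Mrps12 of the decoding centre, -0.41 for Mrps18a, -0.37 for Mrps18b, 0.01 for Mrps30, -0.47 for Mrpl37, -0.12 for Mrpl41 and -0.06 for Mrps22. No reading of Mrps6 reached 1 in the 30 Flvcr-deleted cells (a count of 0 allows up to 10.0%), while 3 of 24 EPO-treated cells and 2 of the 42 wild-type cells had it.

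**Figure D4:**
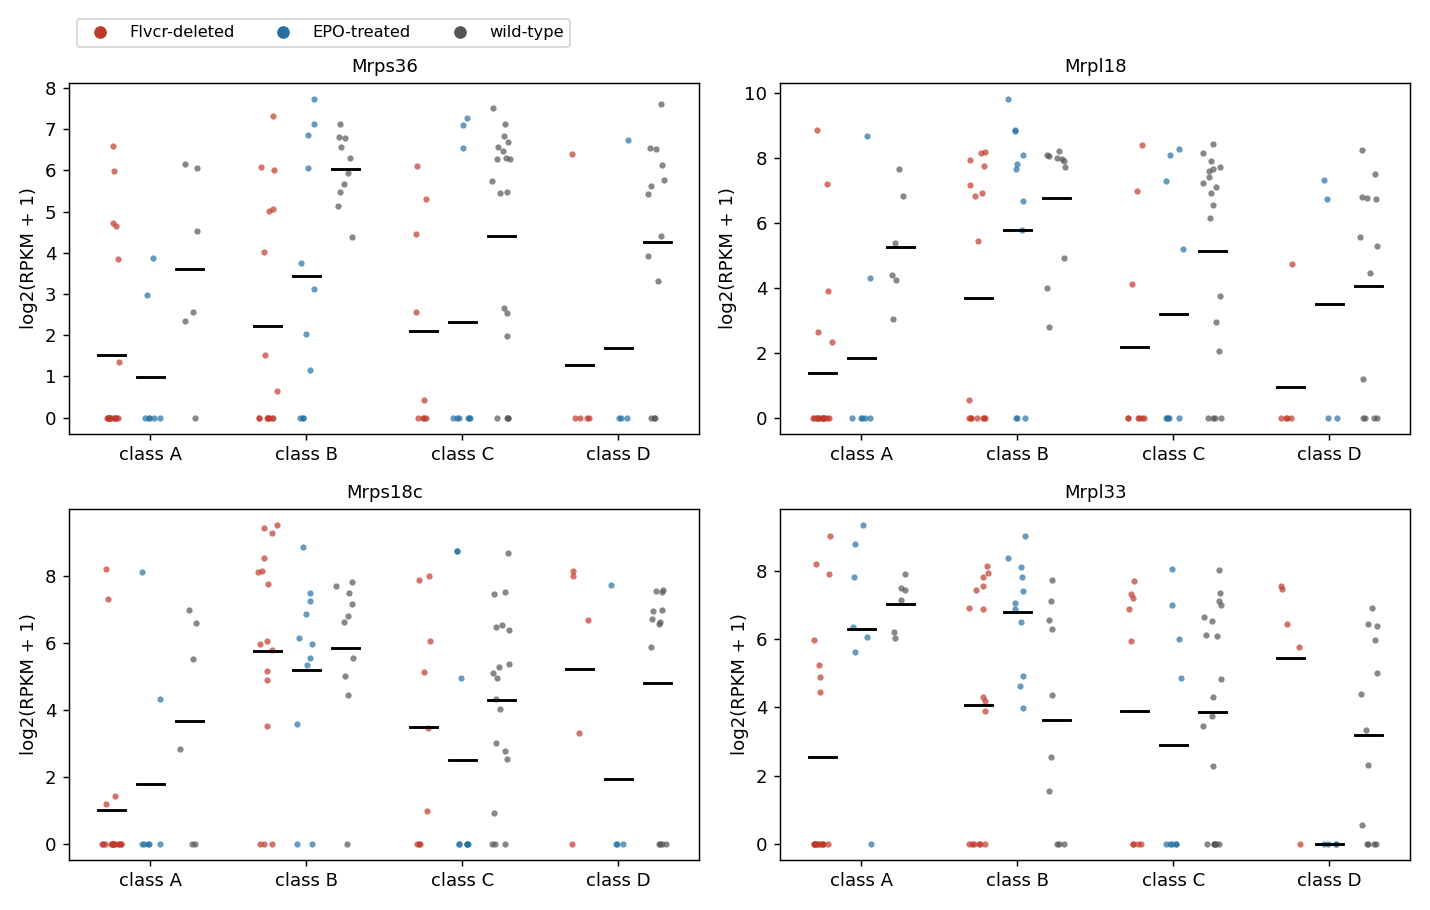
Level of Mrps36, Mrpl18, Mrps18c and Mrpl33 as log2(RPKM + 1) in each cell, by class letter and group; points are cells and bars are means. Mrps36 and Mrpl18 are at 0 in more of the Flvcr-deleted than of the wild-type cells of each class, Mrps18c is read in 13 of 16 class B cells of the Flvcr-deleted group and 9 of 10 of the wild-type group, and Mrpl33 is at 0 in all 4 EPO-treated class D cells.

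Held to cells with 1000 to 2000 detected genes, a range that an earlier analysis of these data chose after seeing them, the direction of the set was the opposite. These were 12 Flvcr-deleted and 18 wild-type cells, with only 2 wild-type cells in class B. The median difference was 0.36 for the set and -0.09 for the background, 18 genes of the set were higher, where 16.0% of the background was, and Mrps36 alone was lower, at -2.62, where 19.1% of the background was. Mrpl52 stood at 3.94, Mrps18c at 3.48 and Mrpl33 at 2.85. Mrpl28 was at -1.72 without being called, since classes C (0.50) and D (0.08) lay above 0, and Mrpl14 was at 0.57. The median number of genes of the set detected was 15.5 in these Flvcr-deleted and 11.0 in these wild-type cells.

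Between EPO-treated and wild-type cells, which carry no deletion, most genes of the set had lower levels in EPO-treated cells. The difference was below 0 for 67 of the 77, with a median of -0.39, against -0.99 for the background. The rule called 13 lower, where 42.0% of the background was, and 0 higher, where 0.512% of the background was. Without the filter on low values the background had a median of -0.09 with 10.8% lower, against 16.9% of the set. That comparison is not matched for level, since genes near 0 can hardly reach a size of 1. With the filter on both sides, at most 13 of the 45 genes of the set that passed were lower, against 42.0% of the background. The lower ones were Mrpl53 (-2.53), Mrps36 (-2.41), Mrpl28 (-1.98), Mrps17 (-1.83), Mrps18c (-1.77), Mrpl14 (-1.46), Mrpl48 (-1.35), Mrpl20 (-1.34), Mrpl2 (-1.28), Mrps7 (-1.24), Mrpl18 (-1.15), Mrpl12 (-1.13) and Mrpl22 (-1.07). Of these, 6 were also called lower in Flvcr-deleted cells, and the 2 contrasts share their wild-type cells. The share of the background lower in both contrasts was not computed. In the single contrasts 48.3% (Flvcr-deleted) and 42.0% (EPO-treated) of it was lower, so the overlap is given as a count only. Mrpl53 was read in 11 of 24 EPO-treated cells and 34 of the 42 wild-type cells, and its highest RPKM in the 4 EPO-treated class D cells was 0.10. In cells with 1000 to 2000 detected genes the median of the set was 0.30 and that of the background -0.06. There 4 genes were lower, where 14.0% of the background was, and 4 higher, where 7.99% was. Mrps18c was among the higher ones, at 1.14. Mrpl18 was at 1.93 without being called, with 1.32 in class B, -0.35 in class C and 4.81 in class D. Only 2 EPO-treated class D cells lay in this range. No EPO-treated cell had Mrps30 at an RPKM of 1, and a count of 0 in 31 cells allows up to 9.68%.

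The Flvcr-deleted and EPO-treated cells, set against each other, had nearly the same typical level of the set. The median difference, Flvcr-deleted minus EPO-treated, was 0.08, against -0.12 for the background. Mrpl18 was lower in Flvcr-deleted cells (-1.90), where 8.86% of the background was lower. Mrpl52 (1.86), Mrps18c (1.62) and Mrpl32 (1.21) were higher, where 7.76% of the background was. Mrpl52, found only in mitochondrial ribosomes, had an RPKM of 0 to 438 with a median of 14.8 in Flvcr-deleted cells and of 0 to 176 with a median of 0 in EPO-treated cells, against 0 to 131 with a median of 0.53 in wild-type cells. It was listed at 0 in all 4 EPO-treated class D cells and read in 2 of 5 Flvcr-deleted ones. The small median difference changed its sign without 4 Flvcr-deleted class B cells low in globin, to -0.06, and without class D, to -0.10.

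**Figure D5:**
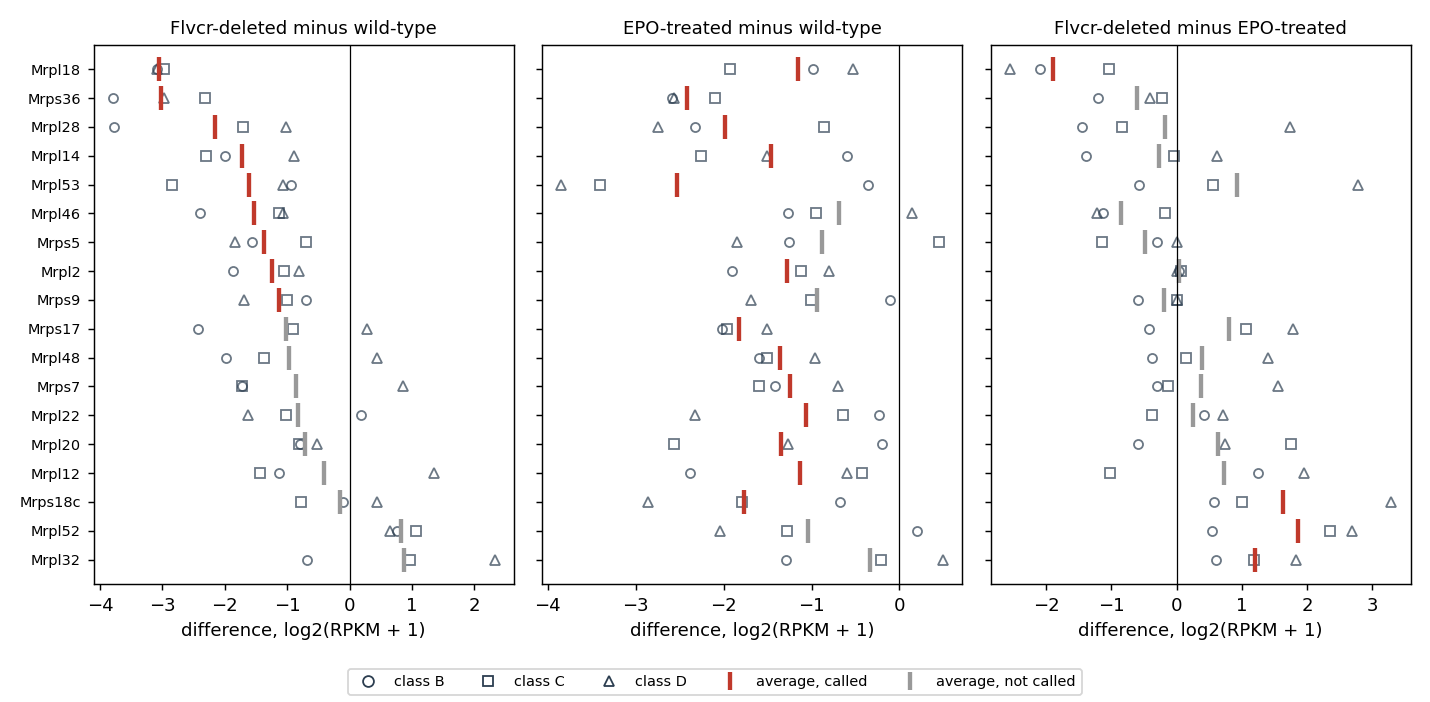
Differences in log2(RPKM + 1) in classes B, C and D (open symbols) and their average (vertical bars, red where called) for the 18 genes of the set called in any of the 3 contrasts. In the left panel the 3 classes of Mrpl18 lie together at about -3, whereas classes of Mrps17, Mrpl48 and Mrpl12 lie on both sides of 0.

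Along the classes, levels were lower in D than in B in all 3 groups, as they were for the background. Class D minus class B had a median of -0.70 in Flvcr-deleted cells, where 26 genes of the set were lower by at least 1 and 4 higher (30.6% and 13.5% of the background). In EPO-treated cells it was -1.51, with 53 lower and 0 higher (58.3% and 10.9%). In wild-type cells it was -1.06, with 40 lower and 0 higher (46.1% and 5.39%). The background median was -0.43 in Flvcr-deleted, -1.36 in EPO-treated and -0.90 in wild-type cells, and that of the cytosolic ribosomal proteins -1.04 in Flvcr-deleted, -5.13 in EPO-treated and -1.99 in wild-type cells. The Flvcr-deleted value rested on 4 class B cells with a globin share of 0.320% to 2.71%, which held 42 to 64 genes of the set. Without them the median was -0.10, with 7 genes lower and 12 higher.

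In wild-type cells the lowest were Mrpl28 (-3.59), Mrpl48 (-3.14), Mrps17 (-3.08), Mrpl12 (-3.05) and Mrps14 (-2.95). At the other end were Mrpl43 (0.85), Mrpl49 (0.57), Mrps9 (0.49), Mrpl40 (0.35) and Mrpl1 (0.27), none of which reached a size of 1. Mrpl28 had a median RPKM of 0 in 13 wild-type class D cells (range 0 to 193) and of 155 in 10 class B cells (0 to 321). It was read in 0 of 4 EPO-treated class D cells and in 8 of 11 class B ones, and in 2 of 5 and 7 of 16 Flvcr-deleted cells of classes D and B. Mrpl33 had another pattern in class D. Its RPKM was 0, 54.0, 86.1, 176 and 187 in the 5 Flvcr-deleted class D cells, 0 in all 4 EPO-treated ones, and 0 to 120 with a median of 9.14 in the 13 wild-type ones. In class B it was read in 10 of 16 Flvcr-deleted cells, in all 11 EPO-treated cells, at 14.9 to 516, and in 7 of 10 wild-type cells.

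Class A is described without calls. The median difference of the set there was -1.15 between Flvcr-deleted and wild-type cells and -1.04 between EPO-treated and wild-type cells. The 18 Flvcr-deleted cells include 9 of suffix d, with a median of 0.223 of the estimated reads in units of 1e6, against 1.57 in the 9 of suffix a and 2.65 in wild-type class A cells. Without the cells of suffix d the median difference was -0.55 between Flvcr-deleted and wild-type cells, and between Flvcr-deleted and EPO-treated cells it was 0.52, against -0.23 with them. Mrpl33 had a median RPKM of 0 in 18 Flvcr-deleted cells (36.6 in those of suffix a), 80.6 in 7 EPO-treated cells and 156 in 6 wild-type cells, all 6 of which had it at 64.7 to 238. Mrpl18 was read in 5 of 18 Flvcr-deleted cells, all 5 of suffix a, in 2 of 7 EPO-treated and all 6 wild-type class A cells. The granulocyte and monocyte markers given above and the depth differed between the same cells, and the part of the markers was not tested.

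Genes that serve the same ribosomes were looked at in 5 lists. One list held 9 symbols outside the naming rule, mostly of mitoribosomal subunits, with the membrane insertase Oxa1l and the assembly factor Mpv17l2 among them; another, Mrp63, is an older symbol of Mrpl57, which is 1 of the 77. Of the other 8, 2 were lower in Flvcr-deleted than in wild-type cells, where 48.3% of the background was: Dap3 (-1.80), a small-subunit protein first known from cell death studies, and Gadd45gip1 (-1.13), a large-subunit protein. In EPO-treated cells the same pair was lower (-1.07 for Dap3 and -1.12 for Gadd45gip1), where 42.0% of the background was, so these counts show nothing beyond the background. Dap3 was read in 5 of 30 Flvcr-deleted cells, 9 of 24 EPO-treated cells and 22 of the 42 wild-type cells. Of 16 translation factors and mRNA regulators present in the data, Slirp, an RNA-binding partner of Lrpprc, was higher in Flvcr-deleted than in wild-type cells (1.33). None was lower. Of the background, 3.74% was higher and 48.3% lower in that contrast. Lrpprc itself was at -0.72, Mtif2, an initiation factor, at -0.79, and Tufm, the elongation factor, at -0.50. No gene of 21 for assembly and rRNA processing was called in either contrast with wild-type cells. The same held for 10 for mitochondrial DNA and transcription, where Polrmt, the RNA polymerase, stood at 0.26 and Tfam, which packs the DNA, at -0.20 in Flvcr-deleted minus wild-type cells. Among 17 mitochondrial aminoacyl-tRNA synthetases, Lars2, the enzyme for leucine, was higher in EPO-treated than in wild-type cells (1.00, just past the limit of 1). Of the background, 0.512% was higher there. In Flvcr-deleted minus wild-type cells Lars2 was nearly as high, at 0.89, without being called. Lars2 was detected in every cell of classes B to D in all 3 groups, and its mean level of 4.71 was far above the rest of its list. Whether all of its reads come from this gene was not tested. Only 3, 1, 1 and 1 genes of these 4 lists reached the mean level of 1. Genes below it can hardly be called, so these counts are not read as results about the lists.

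Related gene families had other values. Of the 76 cytosolic ribosomal protein genes, 51 were higher and 2 lower in Flvcr-deleted than in wild-type cells, with a median of 1.24, while 22 were lower and 0 higher in EPO-treated cells, with a median of -1.19. Of the 77 respiratory chain genes, 18 were lower (23.4%) and 5 higher (6.49%) in Flvcr-deleted cells, with a median of -0.15, and 34 lower (44.2%) and 0 higher in EPO-treated cells, with a median of -1.14. In the background 48.3% were lower and 3.74% higher in Flvcr-deleted cells, and 42.0% lower and 0.512% higher in EPO-treated cells, so the respiratory chain share lower in EPO-treated cells was near the background. The mitochondrial set, with medians of -0.36 and -0.39 in the same contrasts, which share their wild-type cells, stands beside these as a description. These families are more abundant, and no test of the difference between families could be made with 1 sample a group.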

How the data were processed

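RNA of single marrow cells was turned into cDNA with SMART-Seq chemistry on C1 chips (Fluidigm) and sequenced as Nextera XT libraries, as the labels' protocols state. The authors deposited 1 table of RPKM values (reads scaled by transcript length and by mapped reads), with 34898 transcript rows for 24320 symbols. TopHat2 2.0.9 and mm9 are named in the submitters' processing notes; the counting tool is not given in the sources used here. Counts were not used here, so no count test was run. The EPO-treated columns hold 2 decimals in 100% of 771 values above 0 in these genes, against 0% of 2405 values of the other groups, and may have been processed apart. A further 4 columns matched no sample and were not used.

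Levels were log2(RPKM + 1), a scale that understates differences of low genes. Detection was an RPKM of at least 1, with exact Clopper-Pearson 95% intervals that cover counting error only; where no cell was positive, the limit is 3 cells of the total. The background was every gene with a mean level of at least 1 over all cells. Differences were averaged over classes B, C and D. With 1 sample per group there was no test. Cell numbers only name cells.

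The genes, gene lists and comparisons were chosen with earlier results of these data known, and the range of 1000 to 2000 detected genes and the 4 cells low in globin were chosen after the data had been seen. Genes named are the 12 with the highest mean level, up to 8 called each way per contrast (all called ones are given), the 5 lowest and 5 highest of class D minus class B in wild-type cells, and a fixed list; Mrps16 and Mrps6 were named for their values. Estimated reads come from the smallest steps of the RPKM values. Transcript lengths and exon overlaps came from GENCODE vM21 and promoters from RefSeq's GRCm38.p6 table, another build than the authors', so only names, lengths and sequences were taken. Python 3.11.15 with numpy 2.4.6, pandas 2.3.3, scipy 1.17.1 and matplotlib 3.10.9 was used, and the scripts were tested on simulated data. Alternatives were other pseudocounts, scalings, filters, cell sets and weights. The result of 1 gene of the synthetase list is not reported here.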

Additional observations from a re-analysis of the deposited data

Results flagged for a closer look

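Wild-type class A cell 28 held 65 of the 77 genes, far from the next cell at 39 (n = 6 cells). It also had the most genes of all, 4047, against 2384 to 3274 in the other 5 cells, and 7 erythroid markers, against 1 to 4. It was the 1 such cell in 14 checks, each of 1 measure (the number detected or the share of the non-globin RPKM) in 1 class of a group. Chance flags about 1 in 20 of such checks, so 1 flag in 14 is not unusual.

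For class D minus class B, Mrpl4, a large-subunit protein with a bacterial counterpart, stood at 1.01 in Flvcr-deleted cells, against -2.44 in EPO-treated and -2.37 in wild-type cells. Mrpl33 stood at 1.38 in Flvcr-deleted cells, against -6.79 in EPO-treated cells, where all 4 class D cells were listed at 0, so that value depends on the pseudocount and is no bound. Neither difference was tested.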

How the results depend on the processing

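No paired analysis was possible because cell numbers only name cells and, with 1 sample per group, no test was made. Values below are for the 77 genes: the median difference, then the genes called lower or higher. Background values under these alternatives are given only where stated above. A shift listed here may therefore be shared by genes outside the set and is not read as particular to it. Of the medians and counts under all alternatives, 133 stayed close to the reported value, 76 moved and 6 changed sign; the cause was not tested. With a pseudocount of 0.1, Flvcr-deleted minus wild-type had a median of -0.70 and 18 lower, EPO-treated minus wild-type -0.75 and 22 lower, and Flvcr-deleted minus EPO-treated 5 lower. Class D minus class B then had 43 lower and 7 higher in Flvcr-deleted cells, a median of -2.58 in EPO-treated cells, and -1.85 with 1 higher in wild-type cells. With a pseudocount of 10, the group contrasts had -0.094 and 3 lower, -0.15 and 3 lower, and 1 higher, in the same order. Class D minus class B had 9 lower and 1 higher in Flvcr-deleted, -0.64 and 26 lower in EPO-treated, and -0.43 and 12 lower in wild-type cells.

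With every cell scaled to 1 sum, class D minus class B had 2 higher in Flvcr-deleted cells. With that sum taken without globins it had 15 lower in Flvcr-deleted and 2 higher in EPO-treated cells, and Flvcr-deleted minus wild-type had 1 higher. With all 4 classes, the medians were -0.64 for Flvcr-deleted minus wild-type, -0.59 for EPO-treated minus wild-type and -0.026 for Flvcr-deleted minus EPO-treated, with 1 higher in the last. With every cell weighted alike, Flvcr-deleted minus wild-type had 1 higher, and EPO-treated minus wild-type had -0.13 and 7 lower.

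In cells with 1000 to 2000 detected genes, Flvcr-deleted minus wild-type had 0.36, 1 lower and 18 higher, EPO-treated minus wild-type 0.30, 4 lower and 4 higher, and Flvcr-deleted minus EPO-treated 6 higher. Class D minus class B had 0, 11 lower and 16 higher in Flvcr-deleted, -0.42, 30 lower and 6 higher in EPO-treated, and 0, 15 lower and 9 higher in wild-type cells. Among called genes the sign changed in these cells alone: Mrpl14 stood at 0.57 in Flvcr-deleted minus wild-type, and in EPO-treated minus wild-type Mrpl2 stood at 0.062, Mrpl12 at 0.29, Mrpl14 at 0.60, Mrpl18 at 1.93, Mrpl48 at 0.25 and Mrps18c at 1.14.

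Without chip SCP6, Flvcr-deleted minus EPO-treated had 5 higher. Without class B, Flvcr-deleted minus wild-type had 2 higher, EPO-treated minus wild-type 23 lower, and Flvcr-deleted minus EPO-treated 0.29, 2 lower and 14 higher. Without class C, these had 2 higher, 1 higher, and 3 lower and 6 higher. Without class D, Flvcr-deleted minus wild-type had 17 lower and 1 higher, and Flvcr-deleted minus EPO-treated -0.10, 3 lower and 1 higher. With medians over cells, Flvcr-deleted minus wild-type had -0.029, 5 lower and 1 higher, EPO-treated minus wild-type 0, 3 lower and 1 higher, and Flvcr-deleted minus EPO-treated 1 higher. Class D minus class B then had 0 and 10 lower in Flvcr-deleted, 0 and 25 lower in EPO-treated, and -0.35 in wild-type cells. Without the 4 Flvcr-deleted cells low in globin, an alternative chosen after seeing the data, Flvcr-deleted minus EPO-treated had -0.063 and 2 lower, and class D minus class B in Flvcr-deleted cells -0.10, 7 lower and 12 higher. Without the Flvcr-deleted class A cells of suffix d, also chosen after seeing the data, the class A median was -0.55 for Flvcr-deleted minus wild-type and 0.52 for Flvcr-deleted minus EPO-treated. Mrps36 was called lower in both contrasts with wild-type cells under every alternative run; no other gene was.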
